A study of Mus musculus with 4 samples.

Results

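The melanocyte and pigment genes Dct, Tyr, Tyrp1, Pmel, Mlana, Slc45a2, Mitf, Sox10, Kit and Kitl were followed in the epidermis of newborn mice. The 10 genes were taken by name from the deposited tables, with values summed per gene identifier, and they are 10 of the 54752 genes listed. All 10 passed the filter on low values and belong to the 13609 protein-coding genes that were tested. None passed through 1 group alone, since the lowest value of any of them in any library was 1.02 FPKM (a level per transcript length and per library depth, so that levels can be set side by side between genes). Tyrp1 was higher in Skiv2l fl/fl K14-Cre epidermis, Mlana and Kitl shifted in opposite directions without passing the test, and for the other 7 genes no difference beyond the spread between libraries was detected.

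Total RNA from the epidermis of C57BL/6 pups at postnatal day 0 was sequenced in 4 libraries. In 2 libraries, labelled Skiv2lf/fl;K14-Cre and written here as Skiv2l fl/fl K14-Cre, both copies of floxed Skiv2l, the helicase gene of the complex that feeds RNA to the cytoplasmic exosome, were deleted by Cre recombinase under the constitutive keratin 14 promoter. The other 2 libraries, Skiv2l ctl, came from pups of the same cross with mixed genotypes, either floxed without Cre or with Cre and only 1 floxed allele, and which control carried which is not given per library. The promoter is active in keratinocytes and not in melanocytes, so by design melanocytes kept Skiv2l. The study's mice derive from a knockout line whose parental cells carried an engineered agouti allele, and animals of black coat were used. Each library is a different pup, with 2 pups per genotype. Whether the sequenced pups came from the same litter is not stated.

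Melanocytes are pigment cells of neural crest origin that settle in the epidermis and the hair follicle. Sox10 and Mitf are the transcription factors that establish and maintain them, and Mitf acts on the genes of the pigment enzymes. Tyrosinase (Tyr) starts melanin synthesis from tyrosine, while dopachrome tautomerase (Dct) and tyrosinase-related protein (Tyrp1) act on later intermediates of black-brown melanin. Pmel forms the fibrils of the melanosome, the organelle in which melanin is laid down, Mlana is a melanosome membrane protein needed for Pmel processing, and Slc45a2 is a melanosomal transporter that affects its pH. The receptor Kit on melanocytes binds Kit ligand (Kitl), which is made by keratinocytes and by cells of the dermis and on which migration and survival of melanocytes depend.

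The 3 pigment enzyme genes share a short element in the sequence upstream of their starts, the M-box, through which Mitf is known to act. The RefSeq promoter table for GRCm38.p6, with windows of 300 bases from 250 bases before to 50 bases after the start, held 9 windows for 6 of the 10 genes (Dct, Tyr, Tyrp1, Mitf, Kit and Kitl). The element searched was GTCATGTGC on both strands. The following 30-base stretches show it in capitals, 5′ to 3′ on the strand of the gene, because these are the only members in whose windows it was found.
Tyrp1: gtggggagggaGTCATGTGCtgcctagtag
Tyr: agaaaaagttaGTCATGTGCtttgcagaag
Dct: gtgcacttaggGTCATGTGCtaacaaagag
The Tyrp1 stretch is chr4:80834154-80834183 on the plus strand, with the element at bases -48 to -40 from the RefSeq start. It lies inside the span that GENCODE M21 gives the gene, which begins further upstream. The Tyr stretch is chr7:87493517-87493546 on the minus strand, with the element at bases -23 to -15, and the Dct stretch is chr14:118052380-118052409 on the minus strand, with the element at bases -152 to -144. These lie upstream of the GENCODE M21 span of their genes. The 9 letters occurred in 95 of the 32851 windows in the table (0.289%). The shorter TCATGTG, contained in it, occurred in 3.77% and its core CATGTG in 14.2% of windows. These are matches of letters, not measured binding.

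Sequencing depth, read from the ratio of deposited coverage to FPKM, was 5.84 to 6.27 aligned gigabases per library under the usual definition of these units. Skiv2l was at 19.3 and 19.1 FPKM in Skiv2l ctl epidermis and at 10.9 and 8.56 after deletion (log2 fold change -0.92, limma adjusted p = 0.00368). Over all tested genes, 8.99% were called higher and 25.4% were called lower after deletion of Skiv2l (limma on log2(FPKM + 1), Benjamini-Hochberg adjusted p under 0.05), and the median log2 fold change of all tested genes was -0.20. Called genes that were higher made up 26.1% of all calls, and 53.9% after median scaling, in which each library is brought to a common median and which moved the median log2 fold change to -0.03. Both Skiv2l fl/fl K14-Cre libraries lay above both controls for 18.2% of tested genes and below both for 55.3%. A gene with a log2 fold change of 0 therefore stood above the middle of the tested genes. Epidermal keratinocyte RNA dominated every library, with Krt5 between 1759 and 2075 FPKM.

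Among the 10 genes, 1 was called higher and 0 were called lower, against the 8.99% and 25.4% of all tested genes. At an unadjusted p under 0.05 there were 3, namely Tyrp1 and Mlana, which were higher, and Kitl, which was lower. Their median log2 fold change was 0.09, beside -0.20 for all tested genes. After median scaling their median was 0.23 and 2 were called higher, Tyrp1 and Mlana. In these bulk libraries, fewer cells of a type and less RNA per cell cannot be told apart.

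Ordered by level in the controls, Dct led with a mean of 23.4 ± 0.844 FPKM (SD, n = 2), followed by Pmel, Kitl, Kit, Mitf, Sox10, Tyrp1, Mlana, Tyr and Slc45a2, which was at 1.12 ± 0.141. Dct lay above 79.8% of the tested genes and Slc45a2 above 13.9%. Neighbours in this order whose control values overlapped were Mitf and Sox10, Tyrp1 and Mlana, and Mlana and Tyr. In Skiv2l fl/fl K14-Cre epidermis Dct and Pmel again led and Tyr and Slc45a2 again came last, while Tyrp1 stood in place 4 in place of 7 and Kitl in place 5 in place of 3.

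**Figure D1:**
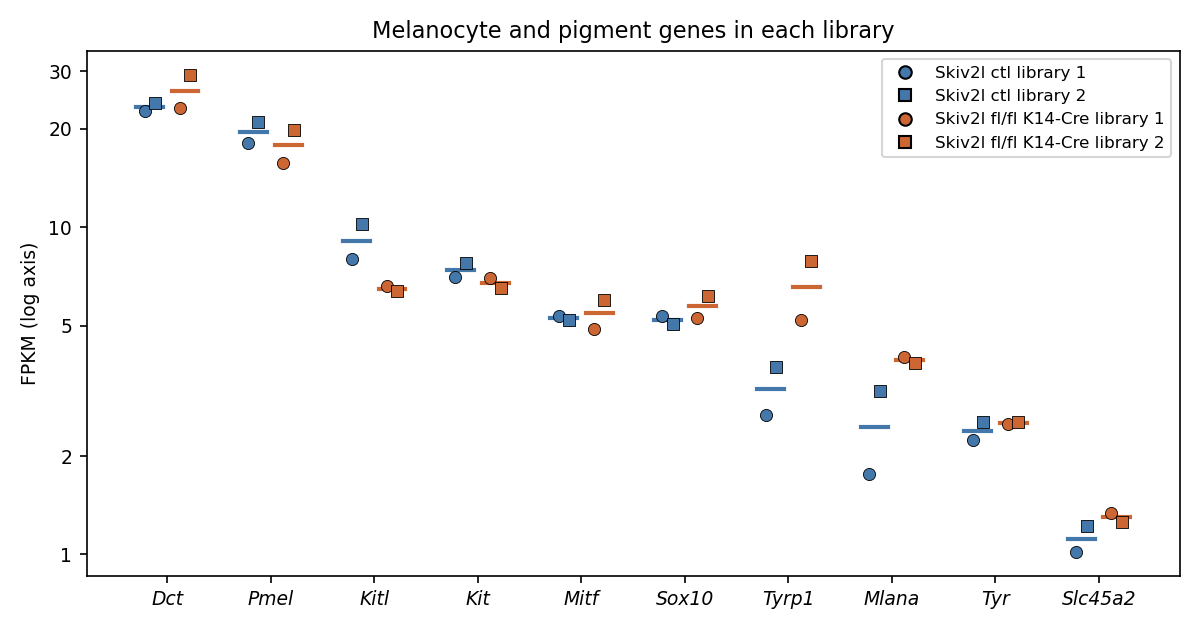
FPKM on a log axis of the 10 melanocyte and pigment genes in each of the 4 libraries, ordered by control mean. Bars are the means of the 2 libraries of a group. The Skiv2l fl/fl K14-Cre points lie above both controls for Tyrp1, Mlana and Slc45a2 and below both for Kit and Kitl. Of all tested genes, 18.2% lay above both controls and 55.3% below both.

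Of the pigment enzymes, Tyrp1 was higher while Tyr and Dct were not called. Tyrp1 (ENSMUSG00000005994.14, chr4:80834123-80851719, plus strand) was at 2.68 and 3.74 FPKM in the Skiv2l ctl libraries (the controls) and at 5.20 and 7.92 in those of Skiv2l fl/fl K14-Cre pups (the knockouts). The groups did not overlap, and the mean was 2.05-fold higher, although library 2 of each group was also higher than library 1, by 1.4-fold in the controls and 1.52-fold in the knockouts. The log2 fold change was 0.83 (SE 0.21, 95% interval 0.32 to 1.35, limma adjusted p = 0.0279). The call was lost when libraries were left out or the filter was dropped, with an adjusted p of 0.179 without Skiv2l ctl library 1, 0.0875 without Skiv2l ctl library 2, 0.0882 without Skiv2l fl/fl K14-Cre library 2, and 0.0878 with no filter on low values. The log2 fold change stayed between 0.57 and 1.09 over the 12 alternatives.

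Tyr (ENSMUSG00000004651.6, chr7:87424771-87493512, minus strand), which encodes the rate-limiting enzyme, had an FPKM of 2.24 and 2.54 in the controls and of 2.50 and 2.55 in the knockouts. The values overlapped, and the log2 fold change of 0.06 had a 95% interval from -0.24 to 0.36 (SE 0.12, limma adjusted p = 0.724). Dct (ENSMUSG00000022129.4, chr14:118012790-118052244, minus strand) had an FPKM of 22.8 and 23.95 in the controls and of 23.1 and 29.3 in the knockouts. Here too the groups overlapped, and library 2 alone was high among the knockouts. The log2 fold change of Dct was 0.15 (SE 0.13, 95% interval -0.16 to 0.46, limma adjusted p = 0.373), and it was -0.01 without that library. The interval of Dct therefore spanned 0.90-fold to 1.37-fold on the FPKM + 1 scale, and that of Tyr 0.85-fold to 1.28-fold.

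The 3 enzyme genes carry the M-box printed above, and their log2 fold changes ranged from 0.06 to 0.83. Within each library, Tyrp1 was set against other melanocyte genes, which removes any scaling of the library as a whole. The ratio of Tyrp1 to Tyr was 1.20 and 1.47 in the controls against 2.08 and 3.11 in the knockouts. The ratio of Tyrp1 to Dct was 0.118 and 0.156 in the controls against 0.225 and 0.270 in the knockouts. Against Pmel it was 0.148 and 0.178, then 0.329 and 0.399, and against Sox10 it was 0.501 and 0.740, then 0.983 and 1.28. In all 4 ratios both knockouts lay above both controls. The 4 ratios share the same Tyrp1 values, whose groups already did not overlap, so they are not separate support for its change. The exact permutation p of each ratio was 0.333 (two-sided), the smallest that 2 libraries against 2 allow, and 0.424 after Benjamini-Hochberg adjustment over the 14 ratios computed. By contrast the ratio of Tyr to Dct overlapped between the groups, at 0.0982 and 0.106 in the controls against 0.108 and 0.0869 in the knockouts.

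**Figure D2:**
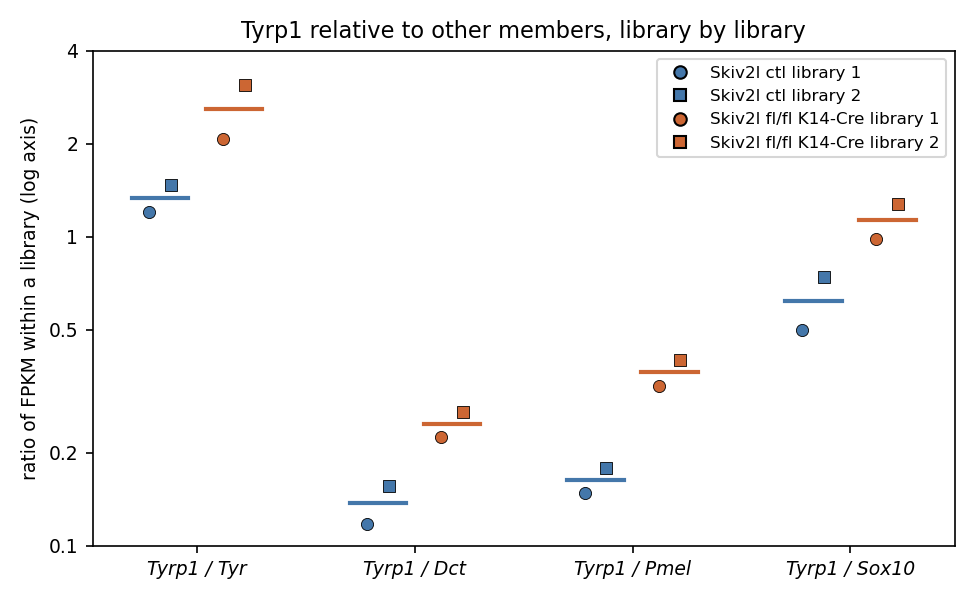
Ratio of the FPKM of Tyrp1 to that of Tyr, Dct, Pmel and Sox10 within each library, on a log axis, with bars at group means. Both Skiv2l fl/fl K14-Cre libraries lie above both controls in each ratio, for example 2.08 and 3.11 against 1.20 and 1.47 for Tyr.

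The melanosome genes were not called. Pmel (ENSMUSG00000025359.10, chr10:128704195-128720238, plus strand) had an FPKM of 18.1 and 21.0 in the controls and of 15.8 and 19.8 in the knockouts. The groups overlapped, and the log2 fold change was -0.13 (SE 0.14, 95% interval -0.46 to 0.20, limma adjusted p = 0.463), turning to 0.07 after median scaling and to 0.02 without Skiv2l fl/fl K14-Cre library 1. Exons of Pmel overlap those of Cdk2 over 34 bases and of Dgka over 105 bases on the other strand, 1.48% and 4.58% of its exonic bases. Its ratio to Dct moved with the groups, since Dct to Pmel was 1.26 and 1.14 in the controls against 1.46 and 1.48 in the knockouts (exact permutation p = 0.333, adjusted 0.424).

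Mlana (ENSMUSG00000024806.3, chr19:29697921-29708448, plus strand) had an FPKM of 1.76 and 3.16 in the controls and of 4.02 and 3.86 in the knockouts. The knockouts lay above both controls, but the controls themselves differed 1.79-fold, more than the knockouts did. The log2 fold change was 0.54 (SE 0.20, 95% interval 0.05 to 1.04) and did not pass the threshold (limma adjusted p = 0.0838). It passed after median scaling (log2 fold change 0.71, adjusted p = 0.0449) and after quantile normalization (0.76, adjusted p = 0.036). Slc45a2 (ENSMUSG00000022243.10, chr15:11000721-11029233, plus strand) was the lowest of the 10, with an FPKM of 1.02 and 1.22 in the controls and of 1.34 and 1.26 in the knockouts. These did not overlap either, yet the gap between the nearest libraries was small, and the log2 fold change was 0.12 (SE 0.14, 95% interval -0.21 to 0.45, limma adjusted p = 0.514). Taken as a sum, the 6 pigment cell products Dct, Tyr, Tyrp1, Pmel, Mlana and Slc45a2 came to 48.6 and 55.6 FPKM in the controls and to 52.0 and 64.7 in the knockouts, which overlapped.

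Control library 2 also held more inner root sheath keratin RNA than control library 1. These keratins are hair follicle products, and follicles house melanocytes. The summed FPKM of Krt25, Krt27, Krt28, Krt71 and Krt73, a list made after values were seen, was 22.4 and 43.7 in the controls against 23.4 and 23.0 in the knockouts. Of the 14 hair follicle markers tested, 1 was called higher and 6 lower, beside 8.99% and 25.4% of all tested genes. The median log2 fold change of these markers was -0.38, beside -0.20 for all tested genes. Among them Krt75, a companion layer keratin, had an FPKM of 0.903 and 2.02, then 16.8 and 10.8, while Shh, the signal of the hair placode, had 11.7 and 12.6, then 2.39 and 2.82. The summed markers were 112 and 157 FPKM in the controls against 90.1 and 86.2 in the knockouts. Within each library, the ratio of Mlana to Krt71 was 0.190 and 0.1605 in the controls against 0.485 and 0.447 in the knockouts. That of Tyrp1 to Krt71 was 0.2895 and 0.190, then 0.628 and 0.916. For each, the exact permutation p was 0.333, adjusted 0.424. Krt71 itself was at 9.25 and 19.7, then 8.29 and 8.64 FPKM, so these ratios also carry its own shift. The part of follicle content in the values of Mlana and Tyrp1 was not tested.

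The regulators Mitf and Sox10 were at similar levels in all libraries. Mitf (ENSMUSG00000035158.15, chr6:97807052-98021349, plus strand) had an FPKM of 5.34 and 5.20 in the controls and of 4.90 and 6.02 in the knockouts. The controls lay between the knockouts, and the log2 fold change was 0.04 (SE 0.13, 95% interval -0.27 to 0.34, limma adjusted p = 0.834), which was -0.0042 on TPM and -0.09 without Skiv2l fl/fl K14-Cre library 2. Mitf has 8 annotated transcripts, and the gene-level values do not separate the melanocyte isoform from those of other cells. None of its 3 RefSeq windows held the M-box letters.

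Sox10 (ENSMUSG00000033006.10, chr15:79154908-79165240, minus strand) had an FPKM of 5.35 and 5.05 in the controls and of 5.29 and 6.19 in the knockouts. The groups overlapped, with a log2 fold change of 0.12 (SE 0.12, 95% interval -0.17 to 0.41, limma adjusted p = 0.456). Sox10 is also expressed by Schwann cells of skin nerves. The 9 Schwann cell markers summed to 31.8 and 31.0 FPKM in the controls and to 35.1 and 35.9 in the knockouts. Most of that sum came from Egr2 and Mbp. Of the 4 that passed the filter, 1 was called higher and 0 lower, beside 8.99% and 25.4% of all tested genes. This was Mbp, a myelin gene with transcripts in other cells too (log2 fold change 0.55, limma adjusted p = 0.0317). The call of Mbp was lost without either Skiv2l ctl library (adjusted p 0.0534 and 0.165) and without either Skiv2l fl/fl K14-Cre library (0.0557 and 0.109). Their part in the level of Sox10 was not tested.

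The ligand Kitl was lower in both knockouts and narrowly missed the threshold, whereas its receptor Kit changed little. Kitl (ENSMUSG00000019966.18, chr10:100015630-100100416, plus strand) had an FPKM of 8.004 and 10.2 in the controls and of 6.63 and 6.37 in the knockouts. The groups did not overlap, and the log2 fold change was -0.42 (SE 0.13, 95% interval -0.75 to -0.10, limma adjusted p = 0.0531). It passed on TPM (-0.50, adjusted p = 0.0371) and when only genes above 1 FPKM in 2 or more libraries were kept (adjusted p = 0.0479). After median scaling it was -0.23 (adjusted p = 0.225). Both knockouts lay below both controls for 55.3% of all tested genes, and the median log2 fold change of all tested genes was -0.20. The gene-level value sums the 6 annotated transcripts, which include those of the soluble and of the membrane-bound ligand.

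Kitl is made by keratinocytes and by fibroblasts, and dermal fibroblast markers were read beside it. Of 11 markers 6 were tested, and of these 3 lay below both controls and 1 above both. Over all tested genes these shares were 55.3% and 18.2%. The 11 genes summed to 70.3 and 77.7 FPKM in the controls and to 29.3 and 32.6 in the knockouts, and 2 of 6 tested, Dcn (log2 fold change -1.60, limma adjusted p = 0.000678) and Col1a2 (-0.61, adjusted p = 0.0332), were called lower. Without Dcn, a matrix proteoglycan gene that made up most of the sum, the other 10 came to 13.4 and 14.9 FPKM in the controls and to 12.4 and 11.2 in the knockouts. Pdgfra, a receptor of fibroblasts, was above both controls in both knockouts without being called (0.299 and 0.250, then 0.789 and 0.668 FPKM, log2 fold change 0.44, limma adjusted p = 0.0601), and Col1a1 overlapped (log2 fold change 0.12), both named after their values were seen. The median log2 fold change of the 6 was -0.15, beside -0.20 for all tested genes, of which 25.4% were called lower. The call of Col1a2 was lost with no filter (limma adjusted p = 0.0862), after median scaling (0.0783) and after quantile normalization (0.0921). It was also lost without Skiv2l ctl library 1, Skiv2l ctl library 2 or Skiv2l fl/fl K14-Cre library 2 (log2 fold change -0.786, -0.441 and -0.515). Set against the basal keratin gene Krt5 within each library, Kitl was at 0.00400 and 0.00493 in the controls and at 0.00376 and 0.00362 in the knockouts (exact permutation p = 0.333, adjusted 0.424). Krt5 itself was at 2003 and 2075, then 1761 and 1759 FPKM, so this ratio also carries its own shift. The keratin genes Krt14 and Krt15 moved in opposite directions (log2 fold change 2.05 and -1.89), so the ratio depends on the keratin chosen. The part of fibroblast content in the value of Kitl was not tested.

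Kit (ENSMUSG00000005672.12, chr5:75574916-75656722, plus strand) had an FPKM of 7.04 and 7.80 in the controls and of 7.01 and 6.54 in the knockouts. The knockouts lay just below both controls, and the log2 fold change was -0.11 (SE 0.11, 95% interval -0.38 to 0.15, limma adjusted p = 0.430), turning to 0.07 after median scaling and 0.08 after quantile normalization. Kit is also the defining receptor of mast cells. The 11 mast cell markers summed to between 0.244 and 0.735 FPKM in any library, none passed the filter, and Fcer1a, Ms4a2 and Mrgprb1 were listed at 0 in all 4. The ratio of Kit to Sox10 overlapped between the groups, at 1.32 and 1.55 in the controls against 1.33 and 1.06 in the knockouts.

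**Figure D3:**
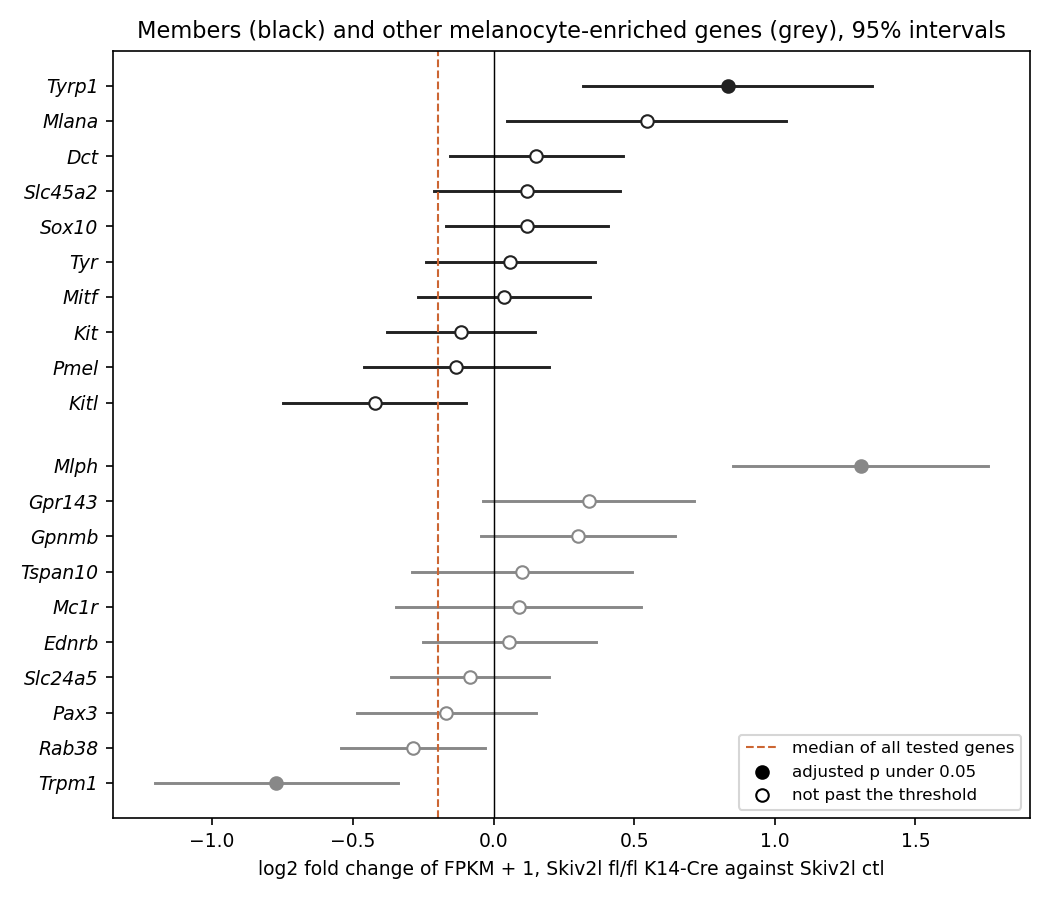
Log2 fold changes (FPKM + 1) with 95% intervals of the 10 members in black and the 10 tested other melanocyte-enriched genes in grey, filled where the limma adjusted p was under 0.05. Tyrp1 and Mlph are filled to the right, Trpm1 to the left, and the dashed line marks the median of all tested genes at -0.20.

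A list of 12 other genes enriched in melanocytes was read beside them. Of the 10 that passed the filter, 1 was called higher and 1 was called lower, beside 8.99% and 25.4% of all tested genes. The median log2 fold change of the 10 was 0.07, beside -0.20 for all tested genes. Among the 10, Gpr143 passed through the knockouts alone (0.310 and 0.357, then 0.567 and 0.813 FPKM) and was not called. It was named after its values were seen. Mlph, the melanophilin that tethers melanosomes to the motor protein myosin Va, had an FPKM of 0.571 and 1.13 in the controls and of 3.18 and 3.88 in the knockouts. The log2 fold change was 1.30 (SE 0.19, limma adjusted p = 0.00437), and it was called under all 12 alternatives. Trpm1, the melastatin channel gene, had an FPKM of 8.86 and 9.38 in the controls and of 3.96 and 6.07 in the knockouts. The log2 fold change was -0.77 (SE 0.18, limma adjusted p = 0.0206), and it kept its direction but lost the call after median scaling (-0.59, adjusted p = 0.0645), quantile normalization (adjusted p = 0.0603), with no filter (0.068), without Skiv2l ctl library 1 (0.122) and without Skiv2l ctl library 2 (0.141).

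Trpm1 and Tyrp1 thus went opposite ways in the same libraries. The ratio of Trpm1 to Dct was 0.389 and 0.392 in the controls against 0.172 and 0.207 in the knockouts, with no overlap (exact permutation p = 0.333, adjusted 0.424). The other 8 tested genes of the list were not called, among them Slc24a5, an ion exchanger of the melanosome (5.80 and 6.69, then 5.64 and 6.02 FPKM), and Pax3, a factor upstream of Mitf (2.61 and 2.27, then 2.18 and 1.95 FPKM), both named after their values were seen. Oca2 and Cited1 did not pass the filter.

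**Figure D4:**
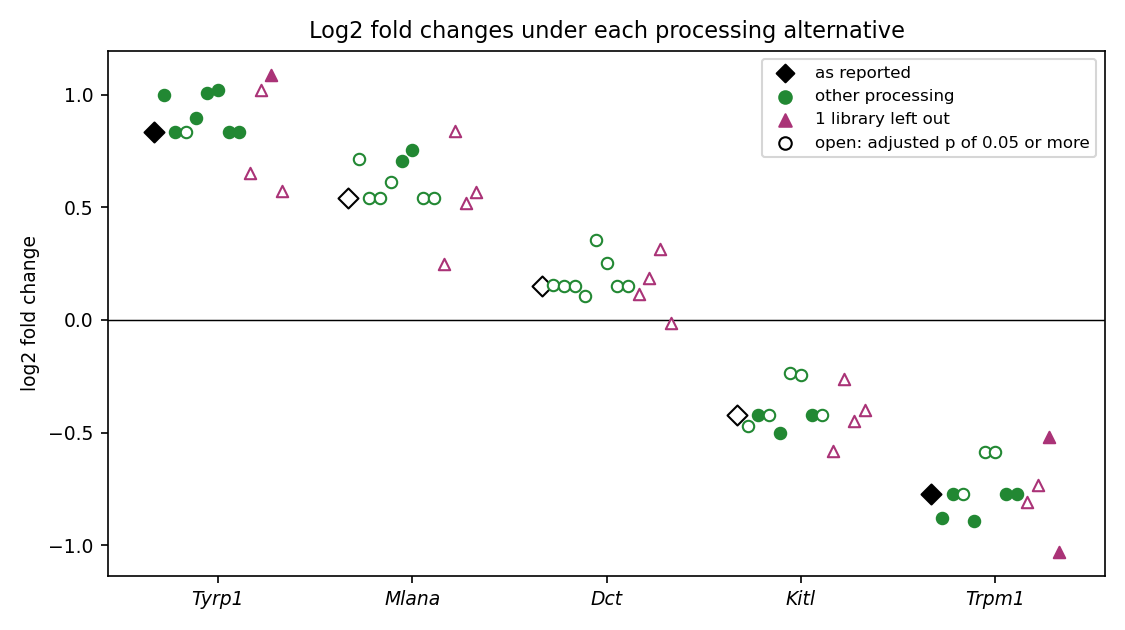
Log2 fold changes of Tyrp1, Mlana, Dct, Kitl and Trpm1 as reported (diamonds), under other processing (circles) and with 1 library left out (triangles), filled where the limma adjusted p was under 0.05. Tyrp1 stays between 0.57 and 1.09 and Kitl between -0.58 and -0.23, whereas Dct reaches -0.01.

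Melanosomes are built by the BLOC and AP-3 sorting complexes and carried to the cell edge by Rab27a, Mlph and Myo5a. These genes serve lysosome-related organelles in other cells too, so their level here need not come from melanocytes. Of 26 genes for melanosome biogenesis and transport, all tested, 1 was called higher and 5 lower, beside 8.99% and 25.4% of all tested genes. The median log2 fold change of the 26 was -0.08, beside -0.20 for all tested genes. Rab27a had an FPKM of 15.0 and 15.2 in the controls and of 7.49 and 8.97 in the knockouts (log2 fold change -0.81, limma adjusted p = 0.00397), and the pseudogene Gm27186 overlaps 3.84% of its exonic bases. In the same transport complex, Mlph was higher, as given above, and Myo5a, named after its values were seen, was at 15.4 and 19.2, then 16.9 and 16.8 FPKM (log2 fold change -0.03). Lyst, the gene of beige coat colour, fell from 28.5 in both controls to 18.0 and 15.2 FPKM (log2 fold change -0.75, limma adjusted p = 0.00411).

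The other genes of that list called lower were Snapin, a BLOC subunit whose exons overlap Ilf2 on the other strand over 15.5% of their bases (log2 fold change -0.86), Hps4 (-0.65) and Bloc1s1 (-0.40). Atp7a, the copper transporter that supplies tyrosinase, was called higher (log2 fold change 0.38, limma adjusted p = 0.0401). Without Skiv2l ctl library 1 the adjusted p was 0.0586 for Rab27a, 0.0571 for Lyst, 0.0972 for Hps4, 0.128 for Bloc1s1 and 0.149 for Atp7a, and without Skiv2l ctl library 2 it was 0.0601, 0.0571, 0.0703, 0.172 and 0.206, and 0.0596 for Snapin. Without Skiv2l fl/fl K14-Cre library 2 it was 0.0659 for Bloc1s1 and 0.102 for Atp7a. The call of Bloc1s1 was also lost after median scaling (-0.20, limma adjusted p = 0.167) and after quantile normalization (0.124). That of Atp7a was also lost with no filter (limma adjusted p = 0.0737), on TPM (0.0548) and with moderation without a trend (0.0597).

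Among the ligands and niche genes that act on melanocytes, 7 of 11 passed the filter, and their median log2 fold change was 0.00. Of the 7, 1 was called higher and 2 lower, beside 8.99% and 25.4% of all tested genes. Nrg1, the neuregulin that binds Erbb3, had an FPKM of 1.26 and 1.05 in the controls and of 21.5 and 14.8 in the knockouts. No library came near the other group, and the log2 fold change was 3.13 (SE 0.18, limma adjusted p = 0.000271), called under all 12 alternatives. A long non-coding gene on the other strand, Gm26578, overlaps 4.66% of its exonic bases. Edn1, the endothelin that keratinocytes make and melanocytes sense, had an FPKM of 4.76 and 5.85 in the controls and of 2.95 and 1.55 in the knockouts (log2 fold change -0.98, SE 0.22, limma adjusted p = 0.0202). Its call was lost with no filter (adjusted p = 0.0721) and without Skiv2l ctl library 1 (0.0966) or Skiv2l ctl library 2 (0.144).

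Adamts9, a matrix protease with a role in melanoblast colonization of the skin, had an FPKM of 10.6 and 10.2 in the controls and of 4.94 and 5.62 in the knockouts (log2 fold change -0.86, SE 0.11, limma adjusted p = 0.00293). Both knockouts were well below both controls, and the adjusted p was 0.0552 without Skiv2l ctl library 1. Exons of A730049H05Rik and Gm15737 overlap 9.18% and 2.82% of its exonic bases on the other strand. The list's Fgf2, Adamts20 and Foxn1 (the last a transcription factor of the follicle and epidermis) were not called, with log2 fold changes of 0.06, -0.20 and 0.00. Adamts20 passed the filter through Skiv2l ctl library 2 alone (0.666 FPKM). Agouti, listed under its symbol a, which switches melanocytes to yellow pigment, was below the filter at 0.0276 and 0.0612 FPKM in the controls against 0.0954 and 0.269 in the knockouts. Edn3, Pomc and Hgf were also below it.

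The receptors and adhesion genes gave 2 calls higher and 1 lower among 7 tested of 8, beside 8.99% and 25.4% of all tested genes. Their median log2 fold change was 0.09, beside -0.20 for all tested genes. The receptors of endothelin, Ednrb, of melanocortin, Mc1r, and of neuregulin, Erbb3, were not called, with log2 fold changes of 0.06 (95% interval -0.25 to 0.36), 0.09 (-0.35 to 0.53) and 0.21 (-0.25 to 0.68). Ece1, which activates endothelins, had an FPKM of 26.6 and 28.9 in the controls and of 44.7 and 49.9 in the knockouts (log2 fold change 0.75, limma adjusted p = 0.00307). Cdh3, the P-cadherin of hair matrix and basal keratinocytes, was higher (log2 fold change 0.43, adjusted p = 0.0138), and Cdh1, the E-cadherin that joins keratinocytes and melanocytes, was at 228 and 239, then 226 and 207 FPKM. Met, the receptor of Hgf, was lower (log2 fold change -0.44, limma adjusted p = 0.0318), a call lost with no filter (0.0689), after median scaling (-0.25, adjusted p = 0.181), after quantile normalization (0.165) and without any of the libraries (adjusted p 0.0649 to 0.213). The call of Cdh3 was lost without Skiv2l ctl library 1 (adjusted p = 0.107) or Skiv2l ctl library 2 (0.0646).

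Of 14 other transcription regulators of melanocytes, 12 were tested, and their median log2 fold change was -0.24, beside -0.20 for all tested genes. Called were 4 of the 12, each of them lower, beside 25.4% of all tested genes called lower. These 4 are also expressed outside melanocytes. Lef1, the Wnt effector that also marks hair placode and matrix cells, had an FPKM of 31.5 and 33.6 in the controls and of 9.74 and 8.76 in the knockouts (log2 fold change -1.71, SE 0.10, limma adjusted p = 0.000235), called under all 12 alternatives. An antisense gene, Gm43352, overlaps 13.7% of its exonic bases. Lef1 moved with Shh, given above. Creb1 (-0.35) and Usf2 (-0.28) lost their calls after quantile normalization (limma adjusted p 0.225 and 0.126) and with a replicate block (0.0568 and 0.058). Moderation without a trend gave 0.0521 and 0.0775, and Creb1 was at 0.0611 with no filter. Tfap2a (-0.41), Creb1 and Usf2 lost their calls after median scaling (adjusted p 0.152, 0.318 and 0.542). They also lost them without Skiv2l ctl library 1 (0.127, 0.223 and 0.163) and without Skiv2l ctl library 2 (0.0996, 0.154 and 0.191). Without Skiv2l fl/fl K14-Cre library 1 the adjusted p was 0.0882 for Creb1 and 0.0879 for Usf2, and without library 2 it was 0.0515 for Tfap2a.

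Downstream of Kit, 23 signalling genes were tested, and 3 were called higher and 5 lower, beside 8.99% and 25.4% of all tested genes. The median log2 fold change of the 23 was -0.08, beside -0.20 for all tested genes. These signalling genes act below many receptors and are expressed in keratinocytes. Map2k1, the kinase that activates ERK, was higher at 12.2 and 12.3, then 20.9 and 23.8 FPKM (log2 fold change 0.82, limma adjusted p = 0.00266), as was the adaptor Shc1 (0.54, adjusted p = 0.00532). The inhibitors Ptpn6 (log2 fold change -0.78, limma adjusted p = 0.00341) and Spred2 (-0.73, adjusted p = 0.00407) were lower. Without Skiv2l ctl library 1 the adjusted p was 0.0652 for Shc1, 0.056 for Ptpn6 and 0.0588 for Spred2, and without Skiv2l ctl library 2 it was 0.057 for Shc1 and 0.0596 for Ptpn6. Map2k1 was called under all 12 alternatives.

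**Figure D5:**
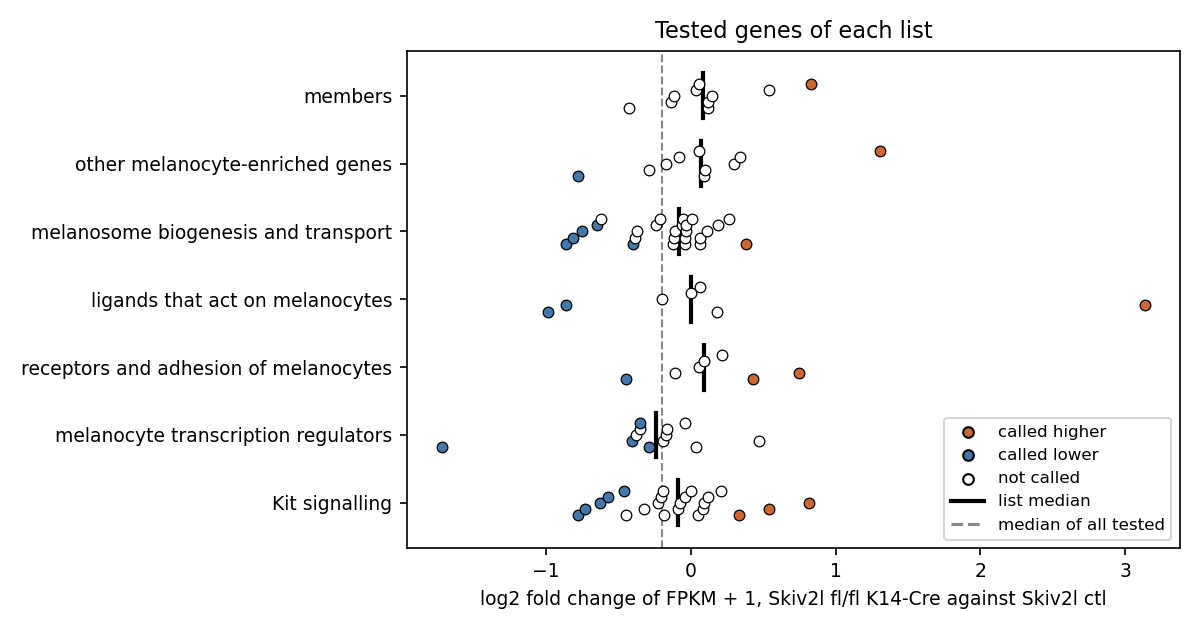
Log2 fold changes of the tested genes in each list, filled orange where called higher and blue where called lower, with a black bar at the median of the list and a dashed line at the median of all tested genes (-0.20). The members' median is 0.09, Nrg1 lies far to the right at 3.13 and Lef1 far to the left at -1.71.

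Other cell types of skin were checked beside these values. Leukocyte markers summed to 14.1 and 22.6 FPKM in the controls and to 11.6 and 9.94 in the knockouts. Of 6 tested 2 were called, both lower, beside 25.4% of all tested genes called lower. Endothelial markers summed to between 0.495 and 0.750 FPKM in any library, and none of the 5 Merkel cell markers was called (1 of them at an unadjusted p under 0.05). Of 7 keratinocyte markers, 2 were called higher and 2 lower, beside 8.99% and 25.4% of all tested genes. The part of leukocytes, endothelial cells, Merkel cells and keratinocytes in the pigment gene values was not tested.

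The genes whose pattern over the 4 libraries was most like that of Dct were Acox3, Glul and Bag4, at distances of 0.0374, 0.0393 and 0.0550 in centred log2(FPKM + 0.1), of 11793 genes ranked. Acox3, a peroxisomal oxidase gene, was at 16.6, 17.2, 16.3 and 20.9 FPKM, and Glul, glutamine synthetase, at 26.8, 28.8, 27.7 and 35.8. Over so few libraries 340 genes lay within 0.2 of Dct. Of the other members, Sox10 ranked 101 and Mitf 111, while Tyr ranked 677, Pmel 1413, Mlana 8506 and Tyrp1 9118. Tyrp1 was thus further from Dct in pattern than Sox10, Mitf, Tyr and Pmel were.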

How the data were processed

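Reads were processed by the authors with an institutional workflow on GRCm38, and 1 table per library was deposited. The aligner, its version and the use of strand are not given in the sources used here. The authors deposited FPKM, scaled for transcript length and depth. The TPM values deposited by the authors sum to a fixed total per library and were used as an alternative. The coverage signal deposited by the authors was used only to read depth. The files hold no counts, so no counting interval is given, and 2 libraries per group limit the precision.

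Values of repeated identifiers (13 to 16 per table) were summed. Of 54752 identifiers, 54029 had the coordinates of GENCODE M21, which gave 21921 protein-coding genes. As in the study, the 13609 with FPKM above 0.5 in at least 1 library were kept. The test was limma 3.58.1 (R 4.3.3) on log2(FPKM + 1), a scale that understates changes of genes with low FPKM. Variances were moderated with a trend, tests were two-sided, and p-values were adjusted by Benjamini and Hochberg over all 13609 genes, with a threshold of 0.05. The procedure was checked on simulated data. Ratios used an exact permutation test in SciPy 1.17.1.

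The members and lists were chosen with earlier results of these data known. Named were the 10 members, Skiv2l, the tested ligand and receptor or adhesion genes, up to 5 called genes of each other list by size of change, and the 3 genes nearest to Dct, except where the text says otherwise. Alternatives were the pseudocount 0.1, only genes above 1 FPKM in 2 or more libraries, all genes without a filter, TPM in place of FPKM, scaling to a common median, quantile normalization, a block for the replicate number, moderation without a trend, and each library left out. Of the 75-base stretches of member transcripts, at most 1.4% occur in another gene. The hair follicle marker Krt85 was not analysed here. Some genes of the lists are not reported here by name.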

Additional observations from a re-analysis of the deposited data

How the results depend on the processing

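Of 624 gene-level values over 52 genes, 492 kept direction and side of the threshold, 119 lost the call, 5 gained it and 8 changed sign. Over all tested genes, 3455 were called lower and 1223 higher as reported. After median scaling these were 1623 and 1894, and after quantile normalization 1917 were lower. Leaving out 1 library gave 805 to 3135 lower and 497 to 1146 higher (805 and 497 without Skiv2l ctl library 1, 810 and 542 without Skiv2l ctl library 2), with a lone library assumed to vary like the other group. Among the members, 1 was called lower (Kitl) with a filter of FPKM above 1 and on TPM. Calls of higher members numbered 0 with no filter, 2 after median scaling, 2 after quantile normalization, and 0 to 1 with a library left out. Of the other melanocyte-enriched genes, those called lower numbered 0 with no filter, 2 on TPM, 0 after median scaling, 0 after quantile normalization and 0 to 1 with a library left out, and 2 were called higher after median scaling. Signs turned for Kit (0.0728 after median scaling, 0.0775 after quantile normalization), Pmel (0.0698 after median scaling) and Mitf (-0.0042 on TPM). With 1 library left out, log2 fold changes ran from -0.0143 to 0.317 for Dct, -0.0042 to 0.124 for Tyr, -0.288 to 0.0229 for Pmel and -0.0879 to 0.162 for Mitf. The causes were not tested.

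The labels number the libraries of each group 1 and 2. Deviations of same-numbered libraries correlated at -0.08 over 13609 genes, and no source says that a number marks a shared litter or day, so the numbers were not taken as pairs. With the number as a replicate block, 1264 genes were called higher and 3393 lower, and 1 member was called lower (Kitl, adjusted p = 0.0469).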

Other observations

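The M-box letters GTCATGTGC were found in the RefSeq windows of 74 of 27025 genes. Of the 18 of these genes that were tested, 2 were called higher and 5 lower, beside 8.99% and 25.4% of all tested genes. The median log2 fold change of the 18 was -0.21, beside -0.20 for all tested genes. The genes called higher were Tyrp1 and Tmem140 (log2 fold change 1.67, limma adjusted p = 0.0143). Among those called lower were Dgcr6 (-1.05, adjusted p = 0.000672) and Pdzrn4 (-1.15, adjusted p = 0.00325). These genes were chosen by the letters in their windows and named after their values were seen.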
